A study of Mus musculus with 141 samples.

Results

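The Cyp3a family was represented by 7 genes chosen by name, *Cyp3a11*, *Cyp3a13*, *Cyp3a16*, *Cyp3a25*, *Cyp3a41a*, *Cyp3a44* and *Cyp3a59*, of 24423 genes in each library. Their expression was measured by RNA-seq in whole liver, lung and kidney of 47 Collaborative Cross (CC) strains, recombinant inbred mice whose genomes are mosaics of several founder strains. There was 1 male mouse per strain, 8 to 12 weeks old, and all mice shared the same handling, breathing clear air in exposure chambers for 6 hours a day over 2 weeks and no treated group. A strain and its mouse therefore cannot be told apart, and the comparisons are between the 3 tissues of a mouse and across the 47 strains. Total counts ran from 1738046 to 42158454 in liver, from 2829104 to 17585682 in lung and from 3046695 to 15028553 in kidney. The labelled tissues matched their markers. The summed level of 5 hepatocyte markers was 27894 to 97709 CPM (the count scaled to library size) in liver, against 1.83 to 786 CPM in lung and 2.99 to 1081 CPM in kidney, and lung and kidney markers were highest in their own tissues.

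Cyp3a enzymes are cytochrome P450 monooxygenases of the endoplasmic reticulum that take electrons from *Por*, the P450 reductase, and oxidise a broad range of drugs, steroids and bile acids. In mouse liver, *Cyp3a11* is the main inducible form and is switched on by the nuclear receptors *Nr1i2* (pregnane X receptor) and *Nr1i3* (constitutive androstane receptor). *Cyp3a16* is best known from fetal and neonatal liver, and *Cyp3a41a* and *Cyp3a44* from adult female liver, where growth hormone patterns set their level. *Cyp3a13* is the member known for expression outside the liver, including the intestine.

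The gene annotation placed all 7 on chromosome 5 of NCBIM37, the build of the deposited files. *Cyp3a13* stood alone at chr5:138334160-138362847 on the minus strand. The other 6, with *Cyp3a41b* and *Cyp3a57*, formed a cluster of 8 genes over 819 kb, which began 7.74 Mb away. Each gene had 13 exons. Coding sequences fell into 3 branches. *Cyp3a11*, *Cyp3a16*, *Cyp3a41a* and *Cyp3a44* were 92.4% to 95.8% identical to one another, *Cyp3a25* and *Cyp3a59* were 97.5% identical, and *Cyp3a13* was 74.7% to 76.5% identical to the other members. This likeness bears on the counts, because 50-base reads from near-identical copies can be lost where uniquely aligned reads are counted. A 50-base window of a transcript was unique if found at most once in the genome and in no other gene's protein-coding transcript. This was so for 100% of windows in *Cyp3a13*, 88.2% in *Cyp3a16*, 85.2% in *Cyp3a11*, 75.1% in *Cyp3a44*, 73.2% in *Cyp3a25* and 71.7% in *Cyp3a59*. In *Cyp3a41a* it was so for 1.15%. *Cyp3a25* and *Cyp3a59* shared 25.01% of their windows, and *Cyp3a41a* shared 93.7% of its windows with *Cyp3a41b*.

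The 150 bases before the annotated gene start, from RefSeq on GRCm38.p6, are shown for the 6 members whose levels are compared below, so that members with nearly the same upstream sequence can be set beside those that differ. The order is *Cyp3a11* (chr5:145879855-145880004, minus strand), *Cyp3a16* (chr5:145469724-145469873, minus), *Cyp3a44* (chr5:145805875-145806024, minus), *Cyp3a25* (chr5:146009619-146009768, minus), *Cyp3a59* (chr5:146079108-146079257, plus) and *Cyp3a13* (chr5:137921620-137921769, minus). Capitals mark the letters CAAAGTCCA, a motif of the liver factor HNF4, searched on both strands.
Cyp3a11: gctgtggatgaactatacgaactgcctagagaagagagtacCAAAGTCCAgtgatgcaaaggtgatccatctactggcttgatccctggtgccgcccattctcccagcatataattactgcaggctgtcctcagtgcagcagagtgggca
Cyp3a16: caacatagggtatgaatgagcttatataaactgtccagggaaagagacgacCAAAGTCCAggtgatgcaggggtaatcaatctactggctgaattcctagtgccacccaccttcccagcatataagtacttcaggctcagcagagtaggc
Cyp3a44: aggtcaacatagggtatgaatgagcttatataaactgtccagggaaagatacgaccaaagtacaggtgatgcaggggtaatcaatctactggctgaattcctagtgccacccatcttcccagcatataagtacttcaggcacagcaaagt
Cyp3a25: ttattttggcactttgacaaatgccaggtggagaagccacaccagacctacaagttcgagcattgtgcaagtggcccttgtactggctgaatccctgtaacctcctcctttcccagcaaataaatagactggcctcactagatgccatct
Cyp3a59: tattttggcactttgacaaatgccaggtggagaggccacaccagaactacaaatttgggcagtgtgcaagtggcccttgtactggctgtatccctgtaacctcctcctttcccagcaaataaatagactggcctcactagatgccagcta
Cyp3a13: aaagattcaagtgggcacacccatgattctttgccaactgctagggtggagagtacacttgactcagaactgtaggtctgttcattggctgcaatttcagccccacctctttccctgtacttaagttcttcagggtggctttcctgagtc
The search covered a longer stretch that ends at the gene start and holds the bases shown. In it these letters occurred for *Cyp3a11*, *Cyp3a16* and *Cyp3a41a*, and in 0.381% of 27025 such stretches over all genes. The upstream 150 bases of *Cyp3a25* and *Cyp3a59* were 93.4% identical and those of *Cyp3a16* and *Cyp3a44* 91.6% identical, against 70.2% for *Cyp3a11* and *Cyp3a16*. *Cyp3a13* was at most 51.6% identical to any other member here.

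Liver held nearly all of the family's transcripts, with *Cyp3a11* in first place in each of 47 livers. Levels of different genes are compared in TPM, a transcript measure scaled to length and library. In liver, *Cyp3a11* ranged from 112 to 3848 TPM with a median of 708. *Cyp3a13* followed with 7.46 to 277 TPM and a median of 83.9. *Cyp3a25* ranged from 0.37 to 229 TPM with a median of 22.99, and *Cyp3a59* from 0.16 to 362 TPM with a median of 11.9. *Cyp3a13* exceeded *Cyp3a25* in 40 of 47 livers and *Cyp3a25* exceeded *Cyp3a59* in 32, so the order of these 3 changed between strains. *Cyp3a11* supplied a median of 83.3% of the summed Cyp3a TPM, from 46.9% in strain CC025, where *Cyp3a25* supplied 22.5%, to 96.6% in CC061. The second place was taken by *Cyp3a13* in 36 livers, by *Cyp3a25* in 7 and by *Cyp3a59* in 4.

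The 3 remaining members, those known from newborn or female liver, were at or near 0 in most of these adult male livers. *Cyp3a44* had a median of 2 counts, was above 3 counts in 21 livers and at 0 in 13, and reached 898 counts (74.0 TPM) in CC032. *Cyp3a16* was at 0 in 30 livers and above 3 counts in 9. Its highest values were 82 counts in CC006 and 25 counts in CC029, which were 9.14 and 9.36 CPM. *Cyp3a41a* was at 0 in 42 livers and had 196 counts (18.9 TPM) in CC024, with 11 counts in the next liver, CC053. Levels of 3 counts or fewer are too low to rank, and for *Cyp3a41a* few reads can be placed, since 1.15% of its windows are unique. Of the 2 other genes named Cyp3a in the files, *Cyp3a57* had a median of 2 counts in liver and *Cyp3a41b* was listed at 0 in every library of the 3 tissues.

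**Figure D1:**
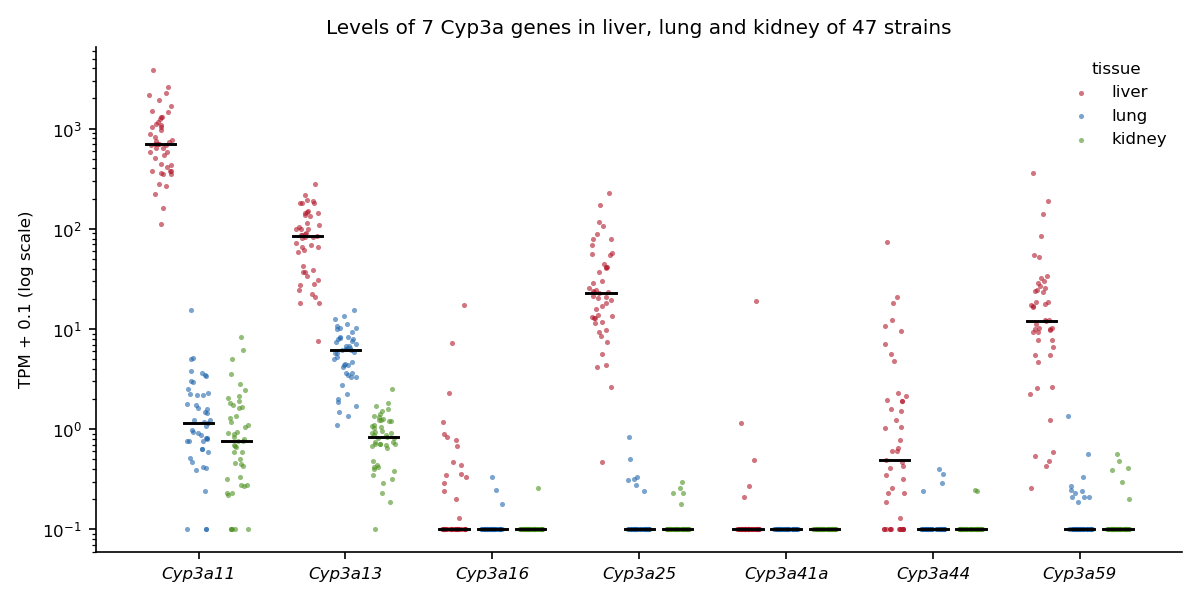
Level of each of the 7 members in the 47 livers, lungs and kidneys, as TPM plus 0.1 on a log scale; each point is 1 library and each black bar the median. *Cyp3a11*, *Cyp3a13*, *Cyp3a25* and *Cyp3a59* are high in liver, *Cyp3a13* has a median of 6.04 TPM in lung, and the other members are at or near 0 outside liver.

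The comparison of tissues asked where each member is expressed. In lung, *Cyp3a13* ranged from 5 to 182 counts with a median of 48, and *Cyp3a11* from 0 to 64 counts with a median of 6. In kidney, both were low, with medians of 6 counts for *Cyp3a13* and 5 for *Cyp3a11*. The other 5 members had a median of 0 in both tissues, and over the 47 lungs and 47 kidneys together *Cyp3a25* summed to 15 and 5 counts, *Cyp3a59* to 16 and 8, *Cyp3a44* to 5 and 2, and *Cyp3a16* to 3 and 1, while *Cyp3a41a* was at 0 in all of them. In liver the same sums were 17413 for *Cyp3a25*, 10241 for *Cyp3a59*, 1684 for *Cyp3a44*, 175 for *Cyp3a16* and 217 for *Cyp3a41a*.

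*Cyp3a11*, *Cyp3a13*, *Cyp3a25* and *Cyp3a59* passed the filter on low counts and entered a fit over 12127 genes by limma-voom with the mouse as a block. A gene was called at *q* ≤ 0.1 and a log2 fold change of at least 1. All 4 were called higher in liver than in lung, as were 23.9% of all genes tested, and higher in liver than in kidney, as were 15.6%. *Cyp3a25* and *Cyp3a59* passed the filter through their liver libraries and so had to differ. *Cyp3a11* also needed its liver libraries to pass, so its *q* values for liver are not independent of the filter. *Cyp3a11* was higher in liver by 10.74 ± 0.14 (log2, SE) against lung (*q* = 2.46e-86) and by 10.90 ± 0.15 against kidney (*q* = 1.96e-84). For *Cyp3a13* the differences were 5.31 ± 0.10 (*q* = 3.29e-74) and 7.74 ± 0.11 (*q* = 4.92e-82). Both genes were higher in liver in 47 of 47 mice, as were 20.9% of genes against lung and 11.9% against kidney. Their liver range lay above the range in either other tissue, which held for 14% of genes against lung and 6.28% against kidney. For *Cyp3a25* and *Cyp3a59*, whose fold against near-empty tissues depends on the prior count, the ratio of pooled CPM (summed counts over summed TMM-scaled library sizes) was 2501 and 1379 against lung and 5357 and 1969 against kidney.

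*Cyp3a13* was the 1 member called between lung and kidney. It was higher in lung in 47 of 47 mice, at 5.86 CPM (median; range 1.20 to 12.7) against 0.766 CPM (0 to 2.68) in kidney, each scaled within its tissue, and the difference was 2.43 ± 0.11 on the log2 scale (*q* = 5.13e-39). In this direction 25.5% of all genes were called, and 19.4% were higher in lung in all 47 mice. *Cyp3a11* differed by 0.15 ± 0.14 between lung and kidney (*q* = 0.284) and was higher in lung in 26 mice, and its sign turned with edgeR and without the block. *Cyp3a25* (-0.34 ± 0.14, *q* = 0.0174) and *Cyp3a59* (-0.35 ± 0.19, *q* = 0.0837) did not reach the fold, rested on few counts and changed sign in other fits.

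Lung and kidney libraries held reads of hepatocyte genes, and each level was set beside 5 hepatocyte markers (*Alb*, *Ttr*, *Apoa1*, *Serpina1e* and *Ahsg*). In lung, *Cyp3a11* followed their summed level across the 47 strains (*r* = 0.79, rho = 0.76, permutation *p* = 1e-05 for both, *q* = 4e-05 over 4 relations; *r* = 0.78 without the 2 most extreme strains). In kidney the relation was *r* = 0.54 (rho = 0.48, permutation *p* = 0.00015 and 0.00077, *q* = 0.0003 for *r*; *r* = 0.53 without 2 strains). The median ratio of *Cyp3a11* to the marker sum was 1.17% in lung, 1.03% in liver and 0.345% in kidney, so the ratio was alike in lung and liver and lower in kidney. For *Cyp3a13* in lung the relation did not pass the test (*r* = 0.18, rho = 0.15, permutation *p* = 0.219, *q* = 0.219), and its median ratio was 6.53% in lung against 0.181% in liver. In kidney, *Cyp3a13* had a median ratio of 0.423% and *r* = 0.34 with the markers (rho = 0.37, permutation *p* = 0.0202, *q* = 0.0269; *r* = 0.34 without 2 strains). Whether these reads came from liver RNA or from the tissue itself was not tested. In whole tissue, fewer cells of a type and less RNA per cell cannot be told apart.

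**Figure D2:**
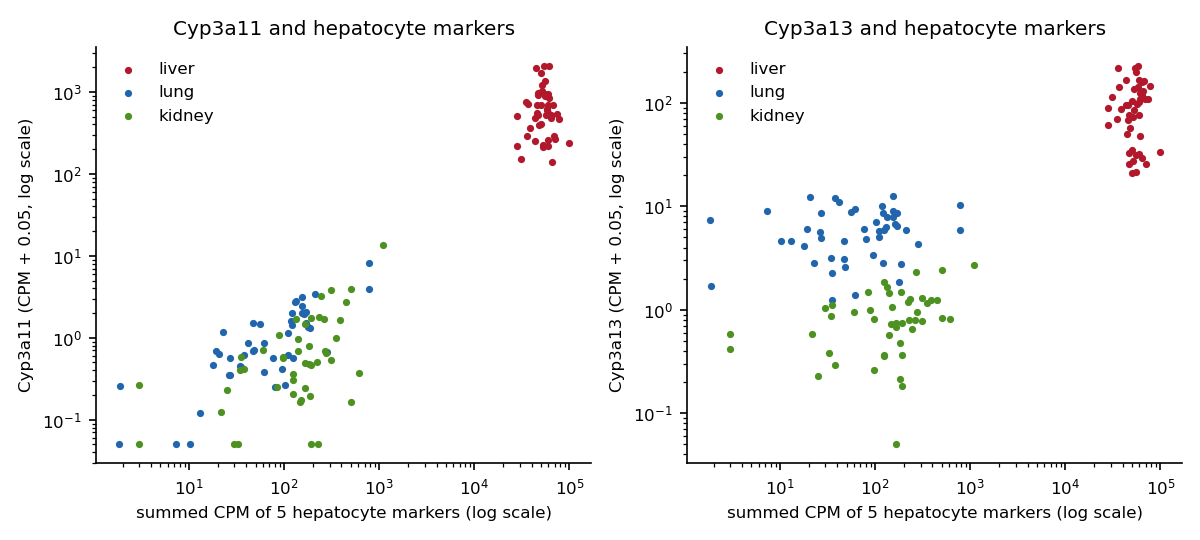
*Cyp3a11* (left) and *Cyp3a13* (right), as CPM plus 0.05, against the summed CPM of 5 hepatocyte markers, both on log scales; each point is 1 library of liver, lung or kidney. Lung *Cyp3a11* rises with the markers (*r* = 0.79), while lung *Cyp3a13* lies at 1.20 to 12.7 CPM and its relation did not pass the test (*r* = 0.18).

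Across strains, the members varied more in liver than most genes. From here on levels are CPM scaled by TMM within a tissue, since the deposited TPM also moved with the ribosomal transcript *Rn45s*, which took 0.103% to 52.2% of a liver library's TPM. *Cyp3a11* ranged from 138 CPM in CC025 to 2072 in CC024, with a median of 532, 15.01-fold from lowest to highest. CC061 (2055) and CC029 (1936) were nearly as high as CC024. *Cyp3a13* ranged from 20.8 CPM in CC035 to 227 in CC019, with a median of 95.5, 10.9-fold. *Cyp3a25* ranged from 0.223 CPM in CC006 to 131 in CC012 and CC032, with a median of 15.4. *Cyp3a59* ranged from 0.141 CPM in CC017 to 221 in CC006, with a median of 9.87.

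The SD of log2 CPM over the 47 livers was 0.97 for *Cyp3a11*, 0.98 for *Cyp3a13*, 1.57 for *Cyp3a25*, 2.12 for *Cyp3a59* and 2.42 for *Cyp3a44*, against a median of 0.41 over 9499 genes. The SD of *Cyp3a44* includes many livers at 3 counts or fewer, with 21 above that. Among genes within 2-fold of the same mean level, 93.7% had a lower SD than *Cyp3a11*, 96.3% than *Cyp3a13*, 98.7% than *Cyp3a25* and 99.1% than *Cyp3a59*. With 1 mouse per strain, this spread holds differences between strains, between mice and between libraries, which cannot be told apart. *Cyp3a13* in lung had an SD of 0.83, above 86.0% of genes of like level.

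**Figure D3:**
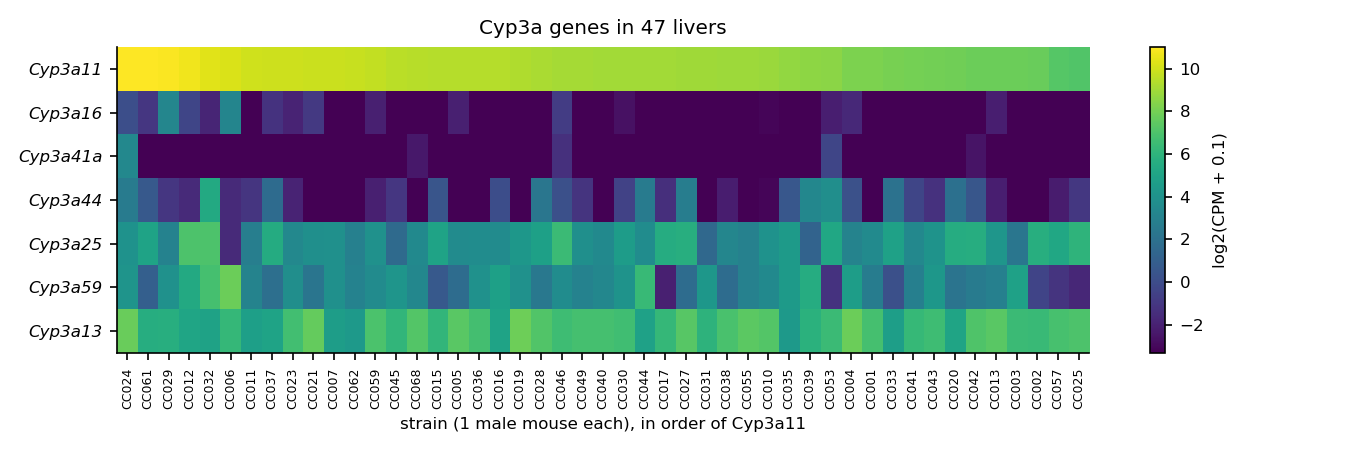
Level of the 7 members in each of the 47 livers, as log2(CPM + 0.1), with strains (columns) in order of *Cyp3a11* from CC024 at 2072 CPM to CC025 at 138 CPM. Single strains stand out in the lower-expressed members, such as CC024 for *Cyp3a41a* and CC006 for *Cyp3a25* and *Cyp3a59*. For *Cyp3a16*, CC029 and CC006 stand out together.

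The 5 members tested in liver gave 10 pairs, and 1 pair was called when each member was used as a predictor of all other genes, namely *Cyp3a25* and *Cyp3a59*, the pair that is 97.5% identical. *Cyp3a59* fell by 1.10 ± 0.22 (log2, SE) per SD of *Cyp3a25* (*q* = 0.00798), in a fit where 0.547% of 9498 genes were called. With *Cyp3a59* as the predictor, *q* was 0.653. Across the 47 livers *r* was -0.47 (permutation *p* = 0.00085) and rho -0.42 (permutation *p* = 0.00342), and *r* was -0.46 without the 2 strains farthest from the median. *Cyp3a59* was the higher of the pair in 16 livers and *Cyp3a25* in 31. In CC006, *Cyp3a25* had 2 counts and *Cyp3a59* 1979 counts. In CC017, at the other end, *Cyp3a59* had 1 count. The sum of both genes varied less (SD 0.95) than either one. On a log scale a sum mostly follows the higher gene, so this SD does not bear on the relation. Without CC006 the pair was no longer called (*q* = 0.503) and *r* was -0.36 (permutation *p* = 0.0128). The authors quantified uniquely aligned reads, so reads in the windows that both genes share may be missing from both counts. The part of that in the relation was not tested.

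**Figure D4:**
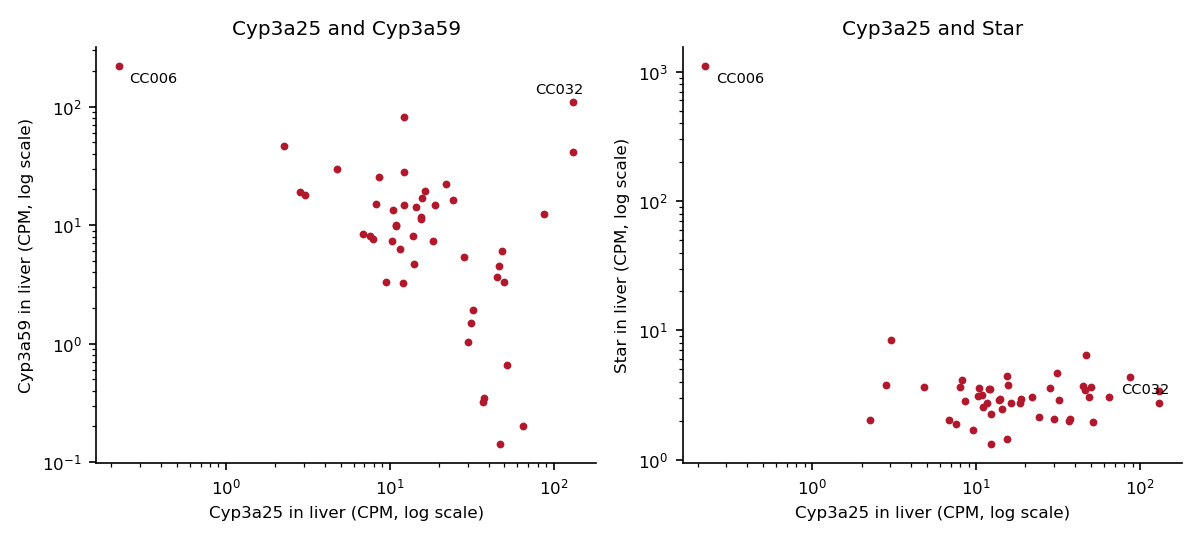
*Cyp3a59* (left) and *Star* (right) against *Cyp3a25* in the 47 livers, in CPM on log scales; each point is 1 strain. CC006 holds the lowest *Cyp3a25* (0.223 CPM) with the highest *Cyp3a59* (221 CPM) and the highest *Star* (1107 CPM).

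Of the other 9 pairs, *Cyp3a11* with *Cyp3a59* (*r* = 0.39, rho = 0.29) and *Cyp3a25* with *Cyp3a44* (*r* = 0.33, rho = 0.39) came next, with permutation *p* of 0.00675 and 0.0206 for *r*, but *q* values of 0.542 and 0.192 in the fit. *Cyp3a11* and *Cyp3a13*, the 2 most abundant members, gave *r* = -0.22 (rho = -0.21, permutation *p* = 0.134, *q* = 0.758).

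The liver of CC006 also stood apart outside the family. It had 1107 CPM of *Star*, the cholesterol carrier of steroid-making cells, where the other 46 livers had 1.31 to 8.38 CPM. *Cyp21a1*, *Cyp11a1* and *Cyp11b1*, enzymes of adrenal steroid synthesis, were at 214, 254 and 263 CPM, against medians of 1.60, 0 and 0 CPM in the other livers. Of 8 adrenal cortex genes, listed after these values were seen, 6 were highest in CC006 at more than 3 counts. The lung of the same mouse had 316 counts of *Star*, 38 of *Cyp21a1*, 4 of *Cyp11a1* and 0 of *Cyp11b1*. Its kidney had 58 of *Star* and 0 of the other 3. *Star* was at 14.5 CPM in this lung and 6.58 in this kidney, against 14.7 and 7.91 CPM in CC024. *Cyp21a1* was at 1.74 CPM in this lung and 0.488 in the lung of CC024. *Cyp3a57* was also highest in the liver of CC006, at 76 counts. The part of these transcripts in the *Cyp3a16*, *Cyp3a25* and *Cyp3a59* values of CC006 was not tested. Of the 52 genes called with *Cyp3a25* over all 47 livers, 39 fell and 13 rose as it rose, and *Star*, *Cyp21a1* and *Fabp4* were among those that fell. Without CC006, 1 gene was called with *Cyp3a25*, *Cops4*, a subunit of the COP9 signalosome (+0.12 ± 0.02, *q* = 0.0122). With *Cyp3a59* as the predictor, 1 gene (0.0105%) was called, *Cyp1b1*, an extrahepatic P450 (0.48 ± 0.10, *q* = 0.067), and it was not called without CC006 (*q* = 0.61).

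The genes called with *Cyp3a13* did not rest on CC006. Of 9498 genes, 4 (0.0421%) were called with it. *Azgp1*, which encodes zinc-alpha-2-glycoprotein and lies 59.9 kb from *Cyp3a13* (chr5:138422749-138431461, plus strand), ranged from 565 to 1169 CPM and rose by 0.16 ± 0.03 (log2, SE) per SD of *Cyp3a13* (*q* = 0.00178; *r* = 0.68, rho = 0.76, permutation *p* = 1e-05 for both, *r* = 0.66 without 2 strains). *Tfr2*, a transferrin receptor of hepatocytes on the same chromosome, ranged from 1.498 to 9.05 CPM and rose by 0.36 ± 0.07 (*q* = 0.0121; *r* = 0.58, rho = 0.59, permutation *p* = 6e-05 and 5e-05). *Prss8*, a serine protease gene on chromosome 7, ranged from 1.20 to 27.4 CPM and fell by 0.56 ± 0.09 (*q* = 0.00178; *r* = -0.58, rho = -0.52, permutation *p* = 4e-05 and 0.00021). *Zfp157*, a zinc finger gene on chromosome 5, fell by 0.42 ± 0.09 (*q* = 0.0537; *r* = -0.49, rho = -0.43, permutation *p* = 0.0005 and 0.00243). All 4 were also called without CC006. *Zfp157* was not called with log2(TPM + 1) (*q* = 0.319) or with TMM-normalized TPM (*q* = 0.601), where *Azgp1*, *Tfr2* and *Prss8* were. Of 19 genes tested that GENCODE places within 500 kb of *Cyp3a13*, *Azgp1* was called, and 5 had an unadjusted *p* under 0.05, beside 5.1% of all genes. *Tfr2* has no position in that annotation. In the gene order of RefSeq on GRCm38.p6 it lies between *Actl6b* and *Mospd3*, both of which are among the genes within 500 kb, so a second called gene was near *Cyp3a13*.

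Levels of *Cyp3a13* were also compared between the tissues of a mouse. Liver and lung levels went together across strains (*r* = 0.63, rho = 0.51, permutation *p* = 1e-05 and 0.00033, *q* = 8.45e-05; *r* = 0.59 without the 2 strains farthest from the liver median), as was called for 17.1% of 10078 genes. On the log2 scale, and leaving out gaps near either end of the order, the widest gap in the liver values was between 34.7 and 48.3 CPM. There were 11 strains below it and 36 above. As a description over narrower ranges of the liver level, *r* between liver and lung was -0.13 in the 11 strains and 0.16 in the 36. For *Azgp1* and *Cyp3a13* in liver it was 0.12 and 0.72, and no difference between the sets was tested. With total counts in place of TMM scaling, the liver and lung relation of *Cyp3a13* was *r* = 0.39 (*q* = 0.337) and not called.

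**Figure D5:**
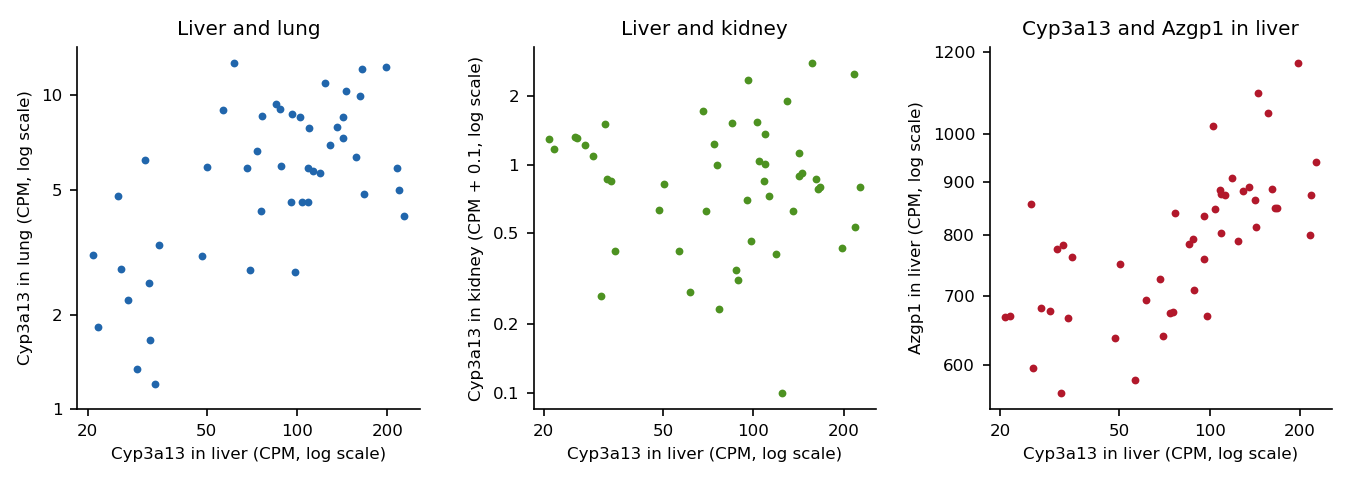
*Cyp3a13* in lung (left), *Cyp3a13* in kidney (middle, CPM plus 0.1) and *Azgp1* in liver (right) against *Cyp3a13* in liver, in CPM on log scales; each point is 1 strain. The 11 strains with liver *Cyp3a13* of 34.7 CPM or less lie to the left of a gap, and kidney levels are scattered (*r* = -0.035).

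No relation between tissues was called for the other 5 of 6 correlations tested. For *Cyp3a13*, *r* was -0.035 between liver and kidney (rho = -0.065, permutation *p* = 0.812, *q* = 0.896) and -0.21 between lung and kidney (rho = -0.16, permutation *p* = 0.148, *q* = 0.358). For *Cyp3a11*, *r* was 0.19 between liver and lung (rho = 0.21, permutation *p* = 0.21, *q* = 0.47), 0.0087 between liver and kidney (*q* = 0.976) and 0.041 between lung and kidney (*q* = 0.898). Over all genes, 26.2% were called between liver and kidney and 20.9% between lung and kidney. Values of *Cyp3a11* were 0 to 64 counts in lung and 0 to 30 in kidney.

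Known partners of the family were compared with its members across the livers. Of 17 transcriptional regulators 12 were tested and none was called with any of the 5 members at *q* ≤ 0.1 by limma. Over all 9498 genes, 0 were called with *Cyp3a11* or *Cyp3a44*, 0.0421% with *Cyp3a13*, 0.547% with *Cyp3a25* and 0.0105% with *Cyp3a59*. The absence of calls in a short list is therefore close to the share over all genes. With *Cyp3a11*, 1 of the 12 had an unadjusted *p* under 0.05, beside 7.0% of all genes, namely *Nr0b2*, a corepressor of nuclear receptors (-0.24 ± 0.11 per SD, *q* = 0.695). With *Cyp3a59* it was 2 of 12, beside 5.8% of all genes, *Nr0b2* among them (-0.24 ± 0.11, *q* = 0.855). *Nr1i2* itself had a slope of 0.11 ± 0.11 (*q* = 0.878) and a mean of 2.04 CPM. *Cebpb* was listed at 0 in every liver and *Cebpa* at no more than 0.252 CPM. Whether such values are low expression or come from the quantification was not tested. None of the 5 electron donors and membrane partners was called. *Por* had slopes of 0.24 ± 0.13 with *Cyp3a11* (*q* = 0.723) and 0.27 ± 0.13 with *Cyp3a25* (*q* = 0.534). Of 22 other targets of *Nr1i2* and *Nr1i3* tested, 0 were called with *Cyp3a11*, as were 0 of all genes. An unadjusted *p* under 0.05 was found for 2 of the 22, beside 7.0% of all genes, *Abcb1a* (0.35 ± 0.14, *q* = 0.643) and *Cyp2a5* (0.50 ± 0.24, *q* = 0.699). The 11 pericentral, 9 periportal and 9 acute phase genes tested held no call with any member.

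Genes that differ between male and female liver gave 1 call. *Acot3*, an acyl-CoA thioesterase, rose with *Cyp3a25* (1.49 ± 0.40 per SD, *q* = 0.0945), and was not called without CC006 (*q* = 0.303). Over all 47 livers 3 of 7 female-predominant genes had an unadjusted *p* under 0.05 with *Cyp3a25*, beside 8.75% of all genes. Of 12 male-predominant genes, *Slco1a1*, a hepatic anion transporter, had a slope of -0.24 ± 0.06 with *Cyp3a11* (*q* = 0.354, rho = -0.51) and *Hsd3b5*, a steroid enzyme, -0.54 ± 0.18 (*q* = 0.5, rho = -0.57). The median slope of the 12 was -0.21 with *Cyp3a11*, 0.16 with *Cyp3a13*, -0.13 with *Cyp3a25*, -0.27 with *Cyp3a44* and -0.088 with *Cyp3a59*, so its sign differed between members, and the median over all genes was between -0.0018 and 0.0030. With *Cyp3a11*, 4 of 7 female-predominant genes had an unadjusted *p* under 0.05, in both directions, from *Acot3* (1.41 ± 0.34, *q* = 0.309) to *Cyp2c40* (-1.38 ± 0.53, *q* = 0.6). Of 7 female-predominant genes tested, 5 had an unadjusted *p* under 0.05 with *Cyp3a44*, beside 6.66% of all genes. These included *Cyp2c38* (1.02 ± 0.24, *q* = 0.216) and *Acot3* (1.19 ± 0.30, *q* = 0.227), and none of the 7 passed the adjustment. With *Cyp3a44* above 3 counts in 21 of the 47 livers, these slopes rest in part on values too low to rank.

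The liver of CC024, with the highest *Cyp3a11* and nearly all *Cyp3a41a* counts, was also extreme for several of these genes. Of 14 female-predominant genes, 5 were highest in CC024 at more than 3 counts. Among them, *Cyp2b9* was at 149 CPM (median of the others 0.125), *Cyp2c38* at 163 (19.1), *A1bg* at 44.1 (0.155) and *Cyp2b13* at 7.65 (0). The male-predominant *Elovl3*, a fatty acid elongase, was lowest in CC024 at 6.61 CPM (median of the others 108), as was *Cyp2d9* at 256.1 (649). The other 10 male-predominant genes were not lowest there, and *Mup20* at 2717 CPM was above the median of the others, 904. The library carried the Y-linked *Ddx3y* at 114 CPM, within the range of the others (59.5 to 126), and *Xist* at 12 counts. In CC006, CC032 and CC033, 0, 0 and 2 of the 14 female-predominant genes were highest, and the share over all genes was not taken. As 1 mouse, CC024 gives values and no test, and it was looked at because of its *Cyp3a* levels.

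The genes whose order across the 47 livers was most like that of each member, among 6269 genes with a mean of at least 5 CPM, were led by *Azgp1* for *Cyp3a13* (rho = 0.76). For *Cyp3a11* they were *Eif4e2*, a cap-binding protein (rho = 0.55), *Mtf1*, the metal-responsive transcription factor (0.52), and *Nt5dc3* (0.51). For *Cyp3a13*, *Tfr2* (0.59) and *Galm*, a galactose mutarotase (0.48), followed. *Cyp3a25* was most like *Cops4* (0.54), *Rnf139* (0.53) and *Acad10* (0.52), and *Cyp3a59* most like *Appl2* (0.55), *Lyrm2* (0.51) and *Ppp6c* (0.48). *Cyp3a44* was most like *Zufsp* (0.62), *Cyp2c38* (0.58) and *Cyp2c39* (0.57), of which *Cyp2c38* is in the female-predominant list. Since *Cyp3a44* was above 3 counts in 21 of the 47 livers and at 0 in 13, much of its order lies among values too low to rank. None of these likenesses for *Cyp3a11* and *Cyp3a44* reached *q* ≤ 0.1 in the fit, where 0 of 9498 genes were called with either and 7.0% and 6.66% had an unadjusted *p* under 0.05.

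For mapping of expression traits, the study kept genes above 1 TMM-normalized TPM in more than 50% of the libraries of a tissue and removed those with a lone extreme library. By this rule 5 of the 21 combinations of member and tissue were kept, *Cyp3a11*, *Cyp3a13*, *Cyp3a25* and *Cyp3a59* in liver and *Cyp3a13* in lung.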

How the data were processed

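RNA-seq was done on 1 library each of liver, lung and kidney from 47 strains. The authors aligned 50-base single-end reads, after quality and adapter filters, with STAR 2.5.3a to strain-specific versions of Build37 (mm9) and RefSeq, and quantified them with RSEM. By the paper's account, reads that aligned uniquely entered the quantification. The expected counts deposited by the authors are estimated reads per gene, of which 25 values were not whole, and they were rounded. The TPM values deposited by the authors scale these counts by transcript length and library. The FPKM column was not used. No batch is given in the labels. The paper fitted sequencing batch as a covariate, and the fits here hold no batch term.

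Tissues were compared with limma-voom (limma 3.58.1, edgeR 4.0.16, R 4.3.3) after TMM scaling, keeping genes above 1 CPM in 30% or more of all libraries and fitting strain as a replicate block because the 3 tissues of a strain came from 1 mouse (median correlation of deviations 0.166, 0.173 and 0.211 in the same mouse and about 0 between mice). P-values were adjusted by Benjamini-Hochberg over all genes tested. In liver, each member's standardized log2 CPM (prior count 1) was used as the predictor of every other gene by limma-voom, with *q* ≤ 0.1 as the call. Correlations used log2 CPM and two-sided permutation tests with 100000 resamples, for which 1e-05 is the smallest *p* they can give. For correlations between tissues, *q* values were taken over genes with a median above 3 counts in both tissues, and not from the permutation *p*. Each p-value measures the spread between single mice. Both fits were tested on simulated data. Floors at 3 counts cover counting error only.

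Sequence identities and read windows were counted on NCBIM37 with GENCODE vM1, and upstream sequences come from a RefSeq table. Genes named are the 7 members, the other Cyp3a genes, the 3 most similar genes per member, the leading genes of fixed lists, called genes, and genes of single livers, the last chosen after their values were seen. A gene of the fixed lists is not reported here. The members and lists were chosen with earlier results of these data known. Alternatives were other scalings, DESeq2 1.42.0, edgeR, filters, thresholds and libraries left out. The other steps used scipy 1.17.1 and pandas 2.3.3 in Python 3.11.15, and figures matplotlib 3.10.9.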

Additional observations from a re-analysis of the deposited data

How the results depend on the processing

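The calls of *Cyp3a11*, *Cyp3a13*, *Cyp3a25* and *Cyp3a59* higher in liver, and of *Cyp3a13* higher in lung than in kidney, were kept under all alternatives, with a log2 difference between lung and kidney of 1.87 to 2.81 for *Cyp3a13*. *Cyp3a59* was not tested once the strains with a library under 4000000 counts were left out. Without a filter, 7 of 7 members were called higher in liver than in lung, and 7 than in kidney, which includes members at 0 in most libraries, as were 6984 and 2480 of 22652 genes. Total counts moved the median log2 change of all genes to -1.44 for liver against lung, from -0.055, and the share of calls higher in liver from 43.5% to 13.7%. For liver against kidney the median moved from -0.0034 to -0.95 and the share from 42.9% to 14.5%, and for lung against kidney from 0.039 to 0.46 and from 55.2% to 68.8%.

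Between lung and kidney, signs turned for uncalled members. *Cyp3a11* was at -0.024 without the replicate block and -0.027 with edgeR. *Cyp3a25* was at 0.056 with total counts, 0.035 and 0.15 with log2(TPM + 1) and log2(TPM + 0.1), and 0.79 with edgeR, and *Cyp3a59* at 0.13, 0.026, 0.13 and 0.18. The replicate block changed no other call.

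Genes called with *Cyp3a25* in liver numbered 52, against 2 with a rank predictor, 0 with log2(TPM + 1), 2 with TMM-normalized TPM, 326 without a filter and 1 without CC006. With *Cyp3a59* it was 1, against 2 with ranks, 1484 with log2(TPM + 1), 2 without low-depth livers, and 0 with TMM-normalized TPM, without a filter, without CC032 or without CC006. With log2(TPM + 1), 4563 genes were called with *Cyp3a11* and 7092 with *Cyp3a13*, on a scale common to all genes of a library, and with TMM-normalized TPM these counts were 0 and 3. Without CC033, 1 gene was called with *Cyp3a11*. Of the 10 member pairs, 0 were called with ranks, TMM-normalized TPM or without CC006, and 2 without low-depth livers. The cause was not tested.

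Of 6 correlations between tissues, 0 were called with total counts. Among uncalled ones, *Cyp3a11* in liver and kidney turned to -0.020 with total counts, -0.064 without low-depth libraries, -0.075 without CC024 and -0.051 without the 2 extreme strains. *Cyp3a13* in liver and kidney turned to 0.081 with total counts and 0.022 without 2 strains, and *Cyp3a11* in lung and kidney to -0.017 without CC024. With a TPM threshold of 0.5, 7 combinations of member and tissue were kept by the mapping filter. Fits without single strains and with TMM-normalized TPM were chosen after seeing the data.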
